A study of Mus musculus with 6 samples.

Results

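Lipid droplet coat and lipolysis genes were followed in primary hepatocytes of male mice whose liver cells had, or by label lacked, the innate immune adaptor STING. The genes are the 10 rows of the gene expression table named *Plin2*, *Plin3*, *Plin4*, *Plin5*, *Cideb*, *Cidec*, *Hsd17b13*, *G0s2*, *Pnpla2* and *Abhd5*, out of 57180 genes listed. They were chosen by name, with earlier results of these data known, and no measured value enters the rule. All 10 passed the filter on low counts, as did 14151 genes in all. The study asked what STING does inside hepatocytes under a fatty acid load, as one arm of its work on metabolic dysfunction-associated steatohepatitis. Control hepatocytes came from STING floxed mice (LOXP, n = 3 libraries). The other group was labelled as liver-specific knockout (STINGLKO, n = 3 libraries), bred from the floxed line with an Albumin-Cre driver, whose recombinase is made in hepatocytes. Cells of both groups were given palmitic acid at 0.1 mM for 24 h in a medium with 0.1 μM dexamethasone, so no library shows either genotype without the fatty acid. The mice of the study were male, 8 to 10 weeks old and of C57BL/6 background, with no age given for these libraries in particular. Any Cre allele in the LOXP mice and whether the libraries of a group came from separate mice are not given in the sources used here. The p-values therefore measure the spread between these libraries, which may be technical.

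A lipid droplet is a store of triglyceride and cholesterol ester wrapped in a phospholipid monolayer, and the proteins on its surface decide how easily lipases reach the core. Perilipins coat the droplet and shield it. CIDE proteins sit where droplets touch and help lipid pass from the smaller droplet to the larger. Lipolysis starts with adipose triglyceride lipase, encoded by *Pnpla2*, which needs its coactivator, encoded by *Abhd5*, and is blocked by the small protein encoded by *G0s2*. In a fatty liver several of these genes are read more strongly, and variants of the human counterparts of *Hsd17b13* and *Cideb* have been linked to liver disease.

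Counted reads ran from 14726983 to 18536985 per library, TMM factors from 0.973 to 1.02, and mitochondrial genes took 3.86% to 4.65% of the reads. *Sting1*, the targeted gene, had 19, 16 and 23 counts in LOXP replicates 1, 2 and 3 and 24, 23 and 15 in the libraries labelled STINGLKO. Its fitted log2 fold change was -0.08 (SE 0.298, 95% interval -0.76 to 0.60, adjusted p = 0.883, edgeR's quasi-likelihood test). The knockout was thus not visible in the gene's total count. Which exons the floxed allele removes is not given in the sources used here, and reads per exon were not analysed here. By the paper's RT-PCR, *sting* mRNA was present in hepatocytes and lost in knockout cells, a measure that is not analysed here. Within the sequencing data the genotype rests on the labels, and STINGLKO is used below for the libraries so labelled.

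Promoters are shown for 4 of the genes that the comparison turns on: *Plin2*, the most abundant, and *Hsd17b13*, *Plin5* and *G0s2*, whose fitted changes were the largest. Each is the 250 bases before the transcription start in RefSeq (GRCm38.p6), read on the gene's own strand. All of these lie on the minus strand, the *Plin2* window at chr4:86670060-86670309, the *Hsd17b13* window at chr5:103977389-103977638, the *Plin5* window at chr17:56117549-56117798 and the *G0s2* window at chr1:193273189-193273438. The submitters' processing notes name GRCm39 for the reads, so these positions are not on the scale of the gene positions given further on. Capitals mark AGGTCA, the core element bound by nuclear receptors such as PPAR alpha, and CCAAT, each on either strand.
Plin2: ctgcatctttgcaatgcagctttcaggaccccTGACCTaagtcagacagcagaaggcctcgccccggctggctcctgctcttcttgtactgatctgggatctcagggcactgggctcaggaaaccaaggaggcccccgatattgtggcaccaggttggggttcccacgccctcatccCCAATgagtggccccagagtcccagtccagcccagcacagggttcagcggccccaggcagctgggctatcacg
Hsd17b13: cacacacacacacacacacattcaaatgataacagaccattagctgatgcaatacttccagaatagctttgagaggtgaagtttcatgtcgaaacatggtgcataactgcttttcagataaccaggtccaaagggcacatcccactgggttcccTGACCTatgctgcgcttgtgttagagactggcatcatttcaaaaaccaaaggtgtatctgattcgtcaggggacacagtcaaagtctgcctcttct
Plin5: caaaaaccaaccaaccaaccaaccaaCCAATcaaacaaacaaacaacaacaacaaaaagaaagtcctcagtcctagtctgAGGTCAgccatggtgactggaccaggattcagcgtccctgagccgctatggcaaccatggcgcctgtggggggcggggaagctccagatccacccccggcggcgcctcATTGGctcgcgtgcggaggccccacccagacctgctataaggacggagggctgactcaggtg
G0s2: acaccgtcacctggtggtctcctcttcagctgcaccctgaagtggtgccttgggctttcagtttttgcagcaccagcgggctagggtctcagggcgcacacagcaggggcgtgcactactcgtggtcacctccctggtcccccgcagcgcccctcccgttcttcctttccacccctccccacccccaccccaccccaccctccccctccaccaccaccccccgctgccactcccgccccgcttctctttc

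All 10 genes had a RefSeq window, and *Cidec* and *Plin5* had more than 1, giving 12 windows. Letter patterns were searched on both strands in the windows of these genes and in all 32851 RefSeq windows of that length. Counts below are of genes and percentages are of single windows, so *Cidec* and *Plin5* had more than 1 window to match in. The counts and percentages are therefore not on the same scale. AGGTCA was in a window of 4 of 10 genes, *Plin2*, *Plin5*, *Hsd17b13* and *Abhd5*, and in 14.0% of all windows. It began 218 bases before the start of *Plin2*, 170 before *Plin5*, 96 before *Hsd17b13* and 69 before *Abhd5*. CCAAT was in the windows of the perilipin genes *Plin2*, *Plin3*, *Plin4* and *Plin5* and in 33.8% of all windows. TATAAA was found before *Cideb* alone among the 10 genes and in 12.4% of all windows. The other patterns were AGGTCANAGGTCA, a direct repeat that holds AGGTCA and was in 0.0335% of all windows, the interferon response pattern GAAANNGAAA (2.98%), the STAT pattern TTCNNNGAA (7.02%) and the E-box CACGTG (6.02%). None of these letters stood in the windows of the 10 genes. The 4 genes with AGGTCA did not share a direction, since *Plin2* was higher in the STINGLKO libraries and the other 3 were lower. A match in letters is a description and not a binding site.

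The lipid droplet genes were mostly lower in the libraries labelled STINGLKO, with 6 of 10 lower, 2 higher and 2 not called at an adjusted p under 0.05 (edgeR's quasi-likelihood test). Of all genes tested, 11.6% were lower and 11.5% higher by the same rule. The 6 lower genes were *Hsd17b13*, *Plin5*, *G0s2*, *Plin4*, *Cideb* and *Abhd5*, the 2 higher were *Plin2* and *Cidec*, and *Plin3* and *Pnpla2* were not called. By the study's criteria for a differentially expressed gene, which add a log2 fold change beyond 1 in size and at least 1 group averaging over 1 FPKM, 3 were lower and 0 higher, and 0 were higher with DESeq2 or limma as well. Of all genes tested, 1.49% were lower and 0.558% higher by those criteria. Normalized CPM of the groups did not overlap for 9 of the 10, where 40.7% of all genes tested had groups that did not overlap. *Pnpla2* was the exception. The median log2 fold change of the 10 genes was -0.50, beside -0.00 for all genes tested, whose quartiles were -0.22 and 0.19.

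**Figure D1:**
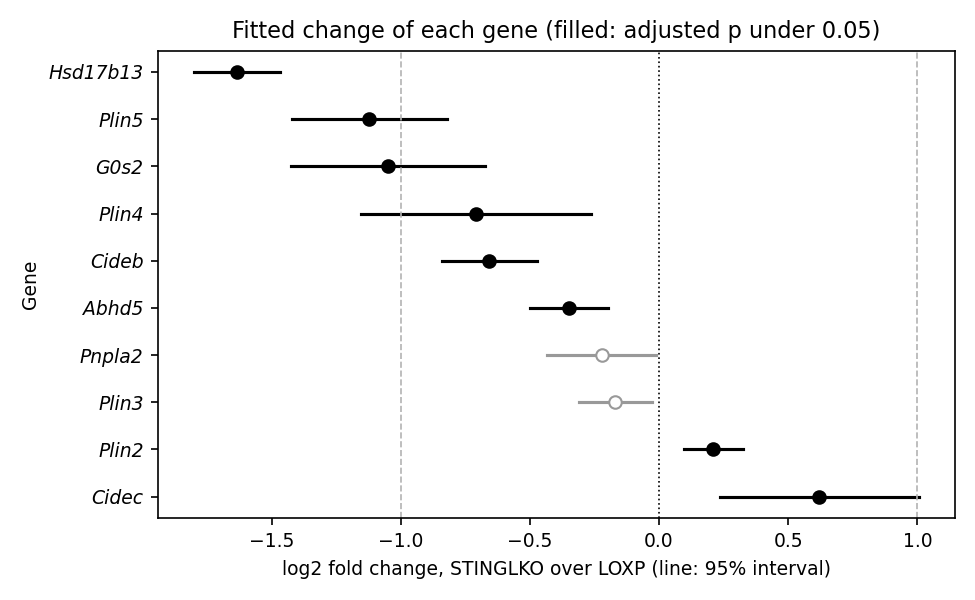
Log2 fold change of each of the 10 genes, STINGLKO over LOXP, from edgeR's quasi-likelihood fit (points) with its 95% interval (lines). Filled points have an adjusted p under 0.05, dashed lines mark a log2 fold change of 1 in either direction, and the values run from -1.63 for *Hsd17b13* to 0.62 for *Cidec*.

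The levels of the 10 genes are given as FPKM, which divides counts by a gene length. In LOXP hepatocytes they spanned from 267 ± 7.78 (SD, n = 3) for *Plin2* to 0.476 ± 0.0742 for *Plin4*. The lengths that these FPKM imply exceed the gene's own span for *Pnpla2* (6.99 kb) and for *Plin4* (9.71 kb against 9213 bases). The order of the genes thus depends on lengths that are not all mRNA lengths. In descending order the LOXP means were those of *Plin2*, *Plin3*, *Hsd17b13*, *Cideb*, *G0s2*, *Pnpla2*, *Abhd5*, *Plin5*, *Cidec* and *Plin4*. Neighbours in this order did not overlap between libraries except *Cideb* and *G0s2*. *Hsd17b13*, which stood in place 3 in LOXP, stood in place 6 in STINGLKO, where *Cideb*, *Pnpla2* and *G0s2* had higher means, and *Cidec* passed *Plin5*. In STINGLKO the libraries of *Pnpla2* overlapped those of *G0s2*, and those of *G0s2* overlapped those of *Hsd17b13*. Summed over the 10 genes, FPKM was 447 ± 9.88 in LOXP and 435 ± 16.8 in STINGLKO, and the libraries overlapped. Without *Plin2* the sum was 180 ± 11.1 in LOXP and 119 ± 1.53 in STINGLKO, with no overlap, so the near-equal totals held a higher *Plin2* and lower levels of most of the rest.

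**Figure D2:**
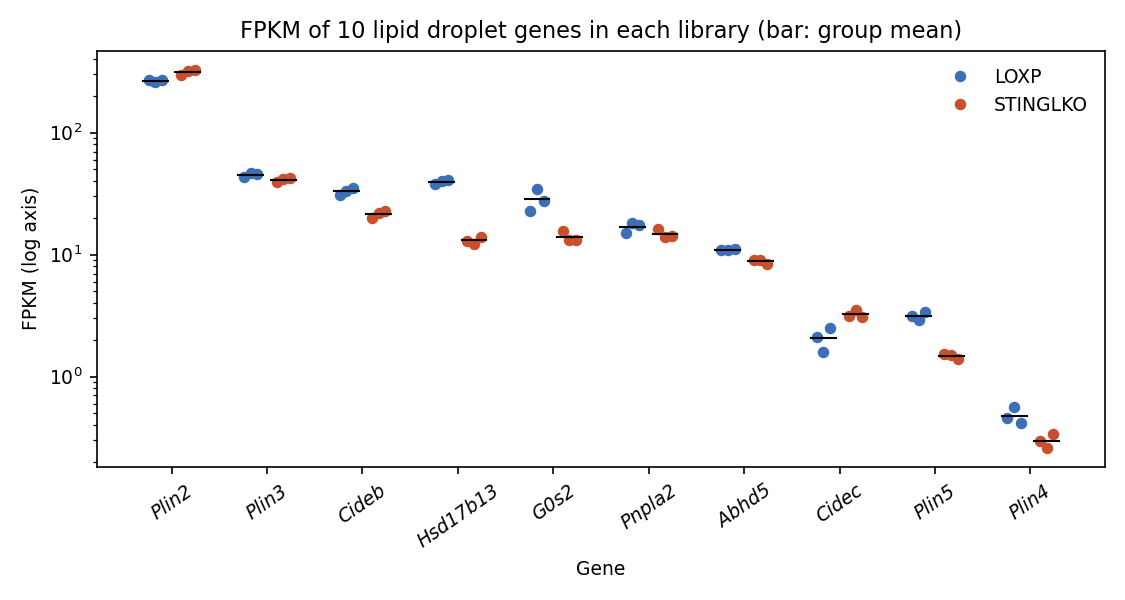
FPKM of the 10 genes in each of the 3 LOXP and 3 STINGLKO libraries on a log axis, with a bar at each group mean. *Plin2* lies between 258 and 329 in every library, *Plin4* lies below 1, and the groups are furthest apart for *Hsd17b13*.

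Among the coat genes, *Plin2* encodes the perilipin found on the droplets of nearly every fat-laden cell and is the main droplet coat of hepatocytes. Its FPKM was 270, 258 and 273 in LOXP replicates 1, 2 and 3 and 299, 323 and 329 in STINGLKO replicates 1, 2 and 3. Each STINGLKO library was above each LOXP library, by a modest margin. *Plin2* rose 1.16-fold (log2 fold change 0.21, SE 0.0499, 95% interval 0.10 to 0.32, adjusted p = 0.0182, edgeR), and its mean FPKM over all libraries was at percentile 98.8 of the genes tested. The call was lost without LOXP replicate 2 (adjusted p = 0.0553), without STINGLKO replicate 2 (0.0669) and without STINGLKO replicate 3 (0.0624). In the table the gene lies on chromosome 4 from 86566623 to 86588297.

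*Plin3* encodes a perilipin that is also found free in the cytosol and moves onto small new droplets. Its FPKM was 43.4, 46.5 and 45.7 in LOXP and 39.1, 41.7 and 42.9 in STINGLKO. All 3 STINGLKO libraries were below all 3 LOXP libraries, by less than 1 FPKM between the nearest of them. The fitted log2 fold change was -0.17 (SE 0.0613, 95% interval -0.31 to -0.03), which did not pass the adjusted test (adjusted p = 0.0828, edgeR). It passed without LOXP replicate 1 (adjusted p = 0.0471).

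*Plin5* encodes a perilipin of tissues that burn fat, which tethers droplets to mitochondria and binds both *Pnpla2* and *Abhd5* products. FPKM of *Plin5* was 3.11, 2.90 and 3.39 in LOXP and 1.52, 1.51 and 1.39 in STINGLKO. The groups were well apart, and the lowest LOXP library was above the highest STINGLKO library by nearly as much as the STINGLKO level itself. *Plin5* fell 2.18-fold (log2 fold change -1.12, SE 0.131, 95% interval -1.42 to -0.82, adjusted p = 7.61e-04, edgeR). The counts behind it were 155, 134 and 163 in LOXP and 74, 88 and 73 in STINGLKO. The call held in each of 12 alternative analyses. On log2(FPKM + 1) the log2 fold change was -0.74, which missed the study's fold criterion.

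*Plin4* encodes a perilipin with a long run of near-identical repeats, known mostly from fat and muscle. It was read at 70, 80 and 62 counts in LOXP and 45, 47 and 55 in STINGLKO, which is an FPKM of 0.476 ± 0.0742 against 0.299 ± 0.0382 (SD, n = 3). The groups did not overlap, but every library was below an FPKM of 1. *Plin4* fell with a log2 fold change of -0.71 (SE 0.195, 95% interval -1.15 to -0.26, adjusted p = 0.0320, edgeR). The call was lost with DESeq2 (adjusted p = 0.0552) and on log2(FPKM + 0.1) (0.0536). Leaving out a library also ended it, for LOXP replicate 1 (0.0521), LOXP replicate 2 (0.0917), STINGLKO replicate 1 (0.0816), STINGLKO replicate 2 (0.113) and STINGLKO replicate 3 (0.0531). The placement of reads within such repeats is uncertain.

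*Plin4*, *Plin5* and *Plin3* lie close together on chromosome 17. *Plin4* spans 56407591 to 56416803, *Plin5* starts 1797 bases further on and spans 56418601 to 56424596, and *Plin3* starts 159879 bases after *Plin5* and spans 56584476 to 56599873. The log2 fold changes in that order were -0.71, -1.12 and -0.17, all negative and unequal in size, with *Plin3* not called. *Hdgfl2*, a chromatin protein gene, shares 17 bases with the end of *Plin4* and had a log2 fold change of 0.12 (adjusted p = 0.314, edgeR).

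As a share of the summed FPKM of *Plin2* to *Plin5*, *Plin2* took 85.2%, 83.8% and 84.6% in LOXP and 87.9%, 88.1% and 88.0% in STINGLKO. The share was higher in each STINGLKO library. *Plin3* took 14.3% ± 0.709 in LOXP and 11.5% ± 0.0794 in STINGLKO, *Plin5* took 0.991% ± 0.0560 and 0.411% ± 0.0381, and *Plin4* took 0.151% ± 0.0271 and 0.0832% ± 0.0104. The summed perilipin FPKM was 316 ± 7.14 in LOXP and 360 ± 17.8 in STINGLKO. The coat mRNA was thus almost wholly *Plin2* with a smaller *Plin3* part in both groups, and *Plin5* stood at about 1% of it or less. These shares are given as a description, with no test.

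The CIDE genes moved in opposite directions. *Cideb* encodes the CIDE protein of healthy hepatocytes, which also takes part in loading lipid onto very low density lipoprotein. *Cideb* FPKM was 31.0, 32.9 and 35.4 in LOXP and 20.0, 21.9 and 22.7 in STINGLKO, so no STINGLKO library came near the LOXP range. *Cideb* fell 1.58-fold (log2 fold change -0.66, SE 0.0811, 95% interval -0.84 to -0.47, adjusted p = 9.73e-04, edgeR), and the call held in each of 12 alternative analyses. *Cideb* lies on chromosome 14 from 55991507 to 55995915. Of these 4409 bases, 1451 are shared with *Nop9*, an RNA-binding protein gene, which rose (log2 fold change 0.30, adjusted p = 0.0115), and 578 with *Gm56758*, read at 2 to 13 counts per library. The strand setting of the counting is not given in the sources used here, so reads in the shared stretches could belong to either gene.

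*Cidec* encodes the CIDE protein of white fat, also called FSP27, which appears in liver as it fills with fat. Its FPKM was 2.10, 1.58 and 2.50 in LOXP and 3.16, 3.49 and 3.08 in STINGLKO, on 76 to 125 and 160 to 211 counts. All STINGLKO libraries were above all LOXP libraries, and LOXP replicate 2 was the lowest of the 6. *Cidec* rose 1.54-fold (log2 fold change 0.62, SE 0.168, 95% interval 0.24 to 1.01, adjusted p = 0.0303, edgeR). This call was fragile. It was lost when all genes with 1 count or more were tested (adjusted p = 0.0535), and without LOXP replicate 1 (0.0636), LOXP replicate 2 (0.0611), STINGLKO replicate 1 (0.0696), STINGLKO replicate 2 (0.105) or STINGLKO replicate 3 (0.0598). The ratio of *Cideb* to *Cidec* FPKM was 14.8, 20.8 and 14.2 in LOXP and 6.33, 6.28 and 7.37 in STINGLKO. *Cideb* stayed the more abundant of the pair in every library. *Cidec* lies on chromosome 6 from 113401595 to 113412721.

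*Hsd17b13* had the largest change of the 10 genes. It encodes a droplet-bound dehydrogenase of the hydroxysteroid family that is made mainly in hepatocytes. FPKM of *Hsd17b13* was 38.1, 39.9 and 40.8 in LOXP and 12.9, 12.3 and 14.1 in STINGLKO. Replicates lay close together in both groups, and the groups were far apart. *Hsd17b13* fell 3.10-fold (log2 fold change -1.63, SE 0.0729, 95% interval -1.80 to -1.47, adjusted p = 5.59e-06, edgeR), and over 12 alternative analyses the log2 fold change stayed between -1.68 and -1.53.

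*Hsd17b13* lies on chromosome 5 from 104103306 to 104125276, and its relative *Hsd17b11*, which also sits on droplets, begins 12351 bases further on. *Hsd17b11* FPKM was 21.2, 18.3 and 21.5 in LOXP and 20.0, 20.3 and 22.5 in STINGLKO. The groups overlapped, with a log2 fold change of 0.01 (95% interval -0.17 to 0.19, adjusted p = 0.962, edgeR) whose sign turned with upper-quartile factors (-4.45e-04), without LOXP replicate 2 (-0.0517) and without STINGLKO replicate 3 (-0.0374). The ratio of *Hsd17b13* to *Hsd17b11* FPKM was 1.80, 2.18 and 1.90 in LOXP and 0.645, 0.606 and 0.626 in STINGLKO. *Hsd17b13* was the more abundant of the neighbours in every LOXP library and the less abundant in every STINGLKO library.

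Among the lipolysis genes, the inhibitor changed the most and the lipase was not called. *G0s2* FPKM was 22.9, 34.6 and 27.6 in LOXP and 15.8, 13.3 and 13.2 in STINGLKO. The LOXP libraries were spread widely, with replicate 2 the highest, and still all lay above the STINGLKO libraries. *G0s2* fell 2.07-fold (log2 fold change -1.05, SE 0.164, 95% interval -1.42 to -0.68, adjusted p = 0.00285, edgeR). Without LOXP replicate 2 the log2 fold change was -0.87 (adjusted p = 0.00428), which no longer met the fold criterion. The criterion was also missed, by less, without STINGLKO replicate 3 (-0.997), on log2(FPKM + 1) (-0.95) and on log2(FPKM + 0.1) (-0.99), with the call kept each time. *G0s2* lies on chromosome 1 from 192954469 to 192955525, and all of its 1057 bases fall within the span of *Lamb3*, a laminin gene. *Lamb3* had 93, 109 and 98 counts in LOXP and 182, 221 and 195 in STINGLKO and rose (log2 fold change 0.81, adjusted p = 0.00332, edgeR), opposite to *G0s2*. As for *Cideb*, the strand setting is not known here, so reads in this stretch could belong to either gene.

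*Pnpla2* FPKM was 15.03, 18.1 and 17.4 in LOXP and 16.1, 14.0 and 14.2 in STINGLKO. The groups overlapped, because LOXP replicate 1 lay below STINGLKO replicate 1. Its log2 fold change was -0.22 (SE 0.0924, 95% interval -0.43 to -0.01, adjusted p = 0.122, edgeR), and of 12 alternative analyses it passed in 1, without LOXP replicate 1 (-0.31, adjusted p = 0.0335). *Pnpla2* lies on chromosome 7 from 141035111 to 141040656.

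The coactivator gene *Abhd5*, also called CGI-58, had an FPKM of 10.9, 10.8 and 11.1 in LOXP and 8.997, 9.06 and 8.34 in STINGLKO. LOXP replicates were almost equal, and each STINGLKO library was lower. *Abhd5* fell 1.27-fold (log2 fold change -0.35, SE 0.0666, 95% interval -0.50 to -0.20, adjusted p = 0.00745, edgeR), and the call held in each of 12 alternative analyses. The gene lies on chromosome 9 from 122180673 to 122210589 and shares 950 bases with *A730085K08Rik*, which had 0 to 2 counts.

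Set against the lipase within each library, the ratio of *G0s2* to *Pnpla2* FPKM was 1.52, 1.92 and 1.59 in LOXP and 0.977, 0.945 and 0.927 in STINGLKO. FPKM of the inhibitor gene was above that of the lipase gene in every LOXP library and slightly below it in every STINGLKO library. The ratio of *Abhd5* to *Pnpla2* was 0.654 ± 0.0639 in LOXP and 0.597 ± 0.0452 in STINGLKO (SD, n = 3), with libraries that overlapped. The ratio of *Abhd5* to *G0s2*, coactivator to inhibitor, was 0.475, 0.313 and 0.401 in LOXP and 0.571, 0.683 and 0.632 in STINGLKO, higher in each STINGLKO library. *Plin5*, which binds the coactivator, stood at 1.17% ± 0.0624 of *Plin2* FPKM in LOXP and 0.467% ± 0.0436 in STINGLKO. These are ratios of mRNA levels per length, given as a description with no test. The length that the deposited FPKM implies for *Pnpla2* is 6.99 kb, which is longer than the gene's span from 141035111 to 141040656. Where a ratio lies against 1 therefore depends on the lengths used, while the direction of its change between the groups does not. Lipase activity and droplet size were not measured here.

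**Figure D3:**
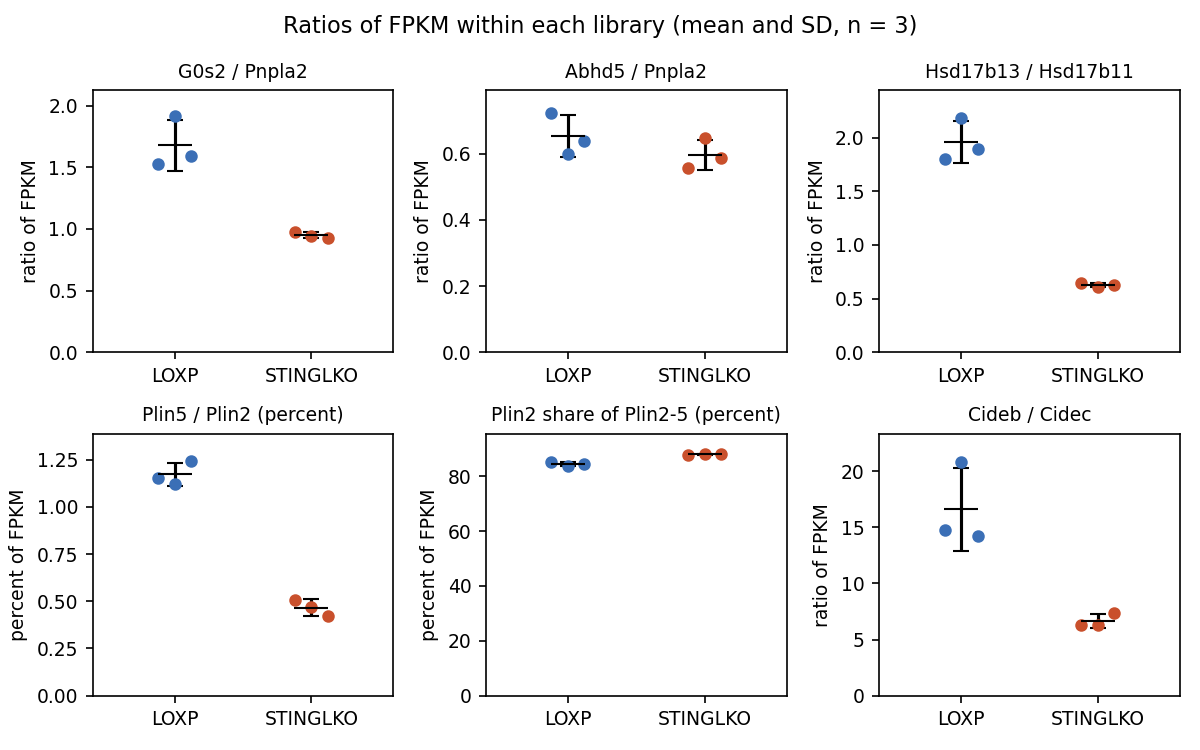
Ratios of FPKM between pairs of genes within each library, with points for the 3 libraries of a group and a bar and whiskers for the mean and SD. The groups overlap for *Abhd5* over *Pnpla2* and do not for the other panels, and *G0s2* over *Pnpla2* is above 1 in each LOXP library and below 1 in each STINGLKO library. The place of a ratio against 1 depends on the gene lengths behind the FPKM.

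With 1 library left out at a time, none of the 10 genes changed direction. *Hsd17b13*, *Plin5*, *G0s2*, *Cideb* and *Abhd5* stayed called throughout. *Plin2*, *Plin4* and *Cidec* were called with all 6 libraries and not without some of them, as given above for each. The number of higher genes ran from 0 to 2, and the number of lower genes from 5 to 7.

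**Figure D4:**
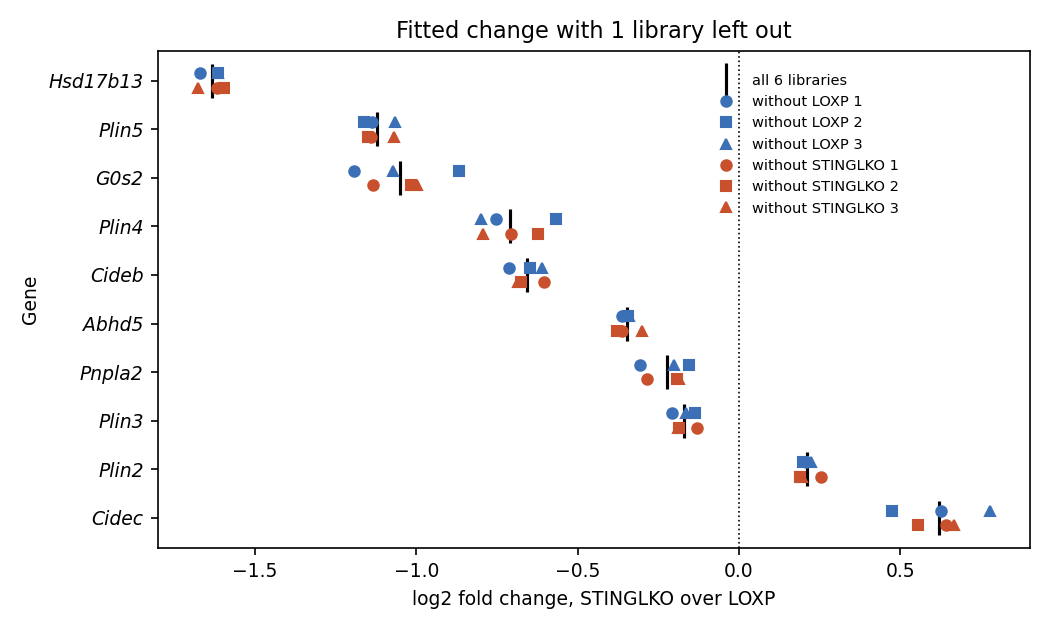
Log2 fold change of the 10 genes, STINGLKO over LOXP, fitted with all 6 libraries (black bar) and with each library left out in turn (blue for a LOXP library, red for a STINGLKO library). All symbols of a gene stay on the same side of 0, and *G0s2* spreads from -1.19 to -0.87.

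A wider list of 37 other genes of droplet surface, lipase and droplet formation roles, written by hand from textbook knowledge, held 33 that were tested. Its lipase genes were listed as lipases and not as droplet proteins. Of these, 9 were lower, 0 higher and 24 not called, beside the 11.6% lower and 11.5% higher over all genes given above. By role, 2 of 10 tested coat or droplet surface genes, 3 of 11 lipase genes and 4 of 12 droplet formation genes were lower. At an unadjusted p under 0.05 edgeR gave 15 lower and 1 higher, and DESeq2 called 10 lower and 0 higher. The median log2 fold change of the 33 genes was -0.17. On log2(FPKM + 1) and on log2(FPKM + 0.1) with limma, and without LOXP replicate 2, 1 gene was higher, namely *Hilpda*, which encodes a hypoxia-inducible inhibitor of adipose triglyceride lipase.

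Lipase genes that fell were *Lipc*, the hepatic lipase, *Ces1g*, a carboxylesterase, and *Aadac*, an esterase of the endoplasmic reticulum. *Lipc* FPKM was 14.2, 16.2 and 15.4 in LOXP and 7.93, 7.71 and 7.73 in STINGLKO, with a log2 fold change of -1.01 (adjusted p = 1.38e-04). *Ces1g* FPKM was 5.27, 5.00 and 4.81 in LOXP and 1.46, 1.85 and 1.97 in STINGLKO, with a log2 fold change of -1.54 (adjusted p = 2.86e-04), and reads could be shared with its close paralogs. For both, the STINGLKO libraries were all far below the LOXP libraries. *Aadac* had a log2 fold change of -0.54 (adjusted p = 0.0118). *Lipe*, hormone-sensitive lipase, was at -0.29 (adjusted p = 0.0965) and did not pass. *Mgll*, monoglyceride lipase, was at 0.02 (adjusted p = 0.967) and turned to -0.31 without LOXP replicate 2, where it had 166 counts against 378 to 516 in the other libraries, and to -0.05 without STINGLKO replicate 2. *Pnpla3*, whose human counterpart carries a well-known fatty liver variant, had 0 to 6 counts per library, too few to test.

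Of the genes that build triglyceride and droplets, *Dgat2*, which makes triglyceride in its last step, fell from 85.0 ± 10.9 FPKM to 61.97 ± 2.78 (SD, n = 3; log2 fold change -0.49, adjusted p = 0.00852). *Lpin2*, a phosphatidate phosphatase gene, fell with a log2 fold change of -0.78 (adjusted p = 0.0177), and its STINGLKO FPKM of 11.3, 18.0 and 21.1 was widely spread below the LOXP values of 28.9, 27.8 and 28.0. *Tm6sf2*, which acts in lipoprotein lipidation, had a log2 fold change of -0.36 (adjusted p = 0.0182), and lost its call without LOXP replicate 2 (0.0520), LOXP replicate 3 (0.0537), STINGLKO replicate 1 (0.0755) or STINGLKO replicate 3 (0.0696). *Ldaf1*, the partner of seipin in droplet formation, was the remaining lower gene of this role (-0.67, adjusted p = 0.0248), named after its value was seen.

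Of the droplet surface genes, *Faf2*, which extracts proteins from droplets for degradation, had a log2 fold change of -0.32 (adjusted p = 0.00576), and *Mettl7a1*, listed as *Tmt1a*, one of -0.60 (adjusted p = 0.00789). *Plin1*, the perilipin of fat cells, had 0 counts in every library, a count that allows up to 3 each by counting error alone. *Cidea* was at -0.64 (adjusted p = 0.158) on 12 to 29 counts, and *Hilpda* at 0.21 (adjusted p = 0.129).

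PPAR alpha is the fatty acid sensor that switches on fat burning in hepatocytes, and several of the droplet genes are among its known targets. In a list of 31 genes, 6 regulators and 25 targets written by hand, all were tested, with 6 lower, 6 higher and 19 not called. Over all genes tested, 11.6% were lower and 11.5% higher by the same rule. The median log2 fold change was 0.02. *Mgll* and *Hilpda* are in this list as well as in that of the other droplet genes. *Ppara* itself was at -0.21 (adjusted p = 0.171) and *Pparg* at 0.23 (adjusted p = 0.318), neither called. Of the regulators, *Creb3l3*, a liver transcription factor of fasting, fell (-0.59, adjusted p = 8.44e-04), as did *Ppargc1a*, a coactivator (-1.21, adjusted p = 0.0300), which is named after its value was seen and averaged 0.374 FPKM in LOXP and 0.167 in STINGLKO.

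Targets moved both ways, with 4 lower and 6 higher. *Fgf21*, a fasting hormone, had an FPKM of 10.8, 8.997 and 12.1 in LOXP and 3.05, 1.93 and 2.82 in STINGLKO (log2 fold change -2.07, adjusted p = 3.11e-04). The STINGLKO libraries were all far below the LOXP libraries. *Ehhadh*, of peroxisomal oxidation, had a log2 fold change of -0.37 (adjusted p = 0.00941), and *Pdk4*, a kinase that restrains the use of pyruvate, one of -0.46 (adjusted p = 0.0111). In contrast, *Fabp1*, the fatty acid binding protein of liver, rose from 24.7 ± 2.92 to 49.95 ± 5.63 FPKM (log2 fold change 0.98, adjusted p = 9.68e-04). *Cyp4a14*, a fatty acid hydroxylase, rose by 0.77 (adjusted p = 4.89e-05), *Acaa1b*, a peroxisomal thiolase, by 0.86 (adjusted p = 2.45e-04), and *Acot2*, a mitochondrial thioesterase, by 0.51 on the log2 scale (adjusted p = 0.00792). These last 3 have close relatives in their gene families, with which reads could be shared. Summed FPKM of the list was 699.6 to 721 in LOXP and 855 to 871 in STINGLKO, higher in each STINGLKO library, while the median of the fold changes was near 0. *Cyp4a14* alone averaged 125 FPKM in LOXP and 219 in STINGLKO, so the sum is weighted to the most abundant genes.

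**Figure D5:**
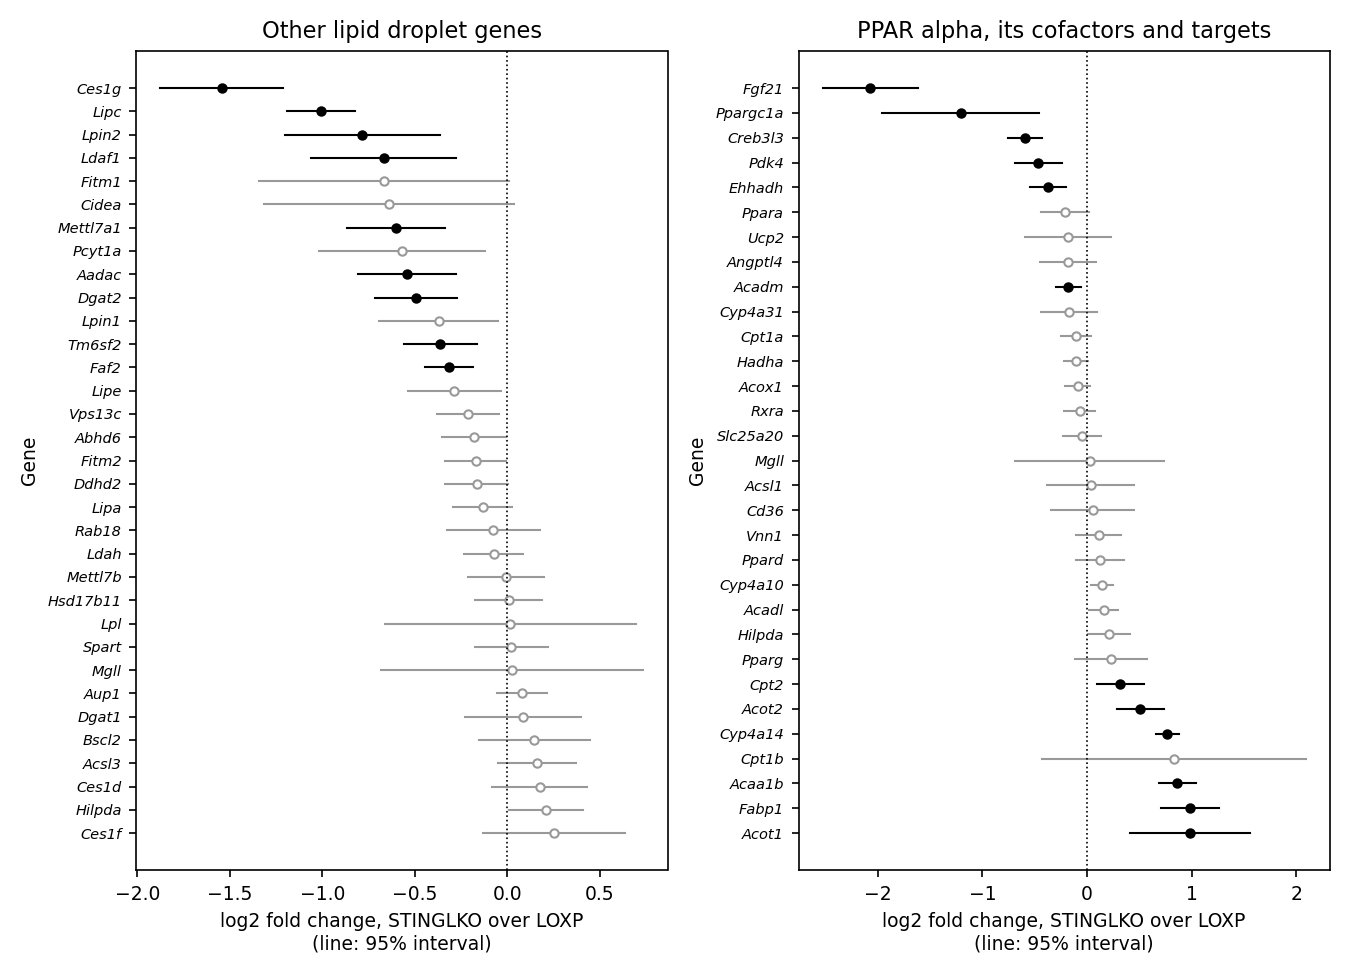
Log2 fold changes, STINGLKO over LOXP, with 95% intervals for the 33 tested genes of the wider lipid droplet list (left) and the 31 genes of the PPAR alpha list (right), with filled points for an adjusted p under 0.05. On the left 9 filled points lie below 0 and 0 above, and on the right 6 lie below and 6 above.

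Markers of hepatocytes and of other cells were read beside these results, because in a bulk sample fewer cells of a type and less RNA per cell cannot be told apart. The marker counts here and in the next paragraph stand beside 11.6% lower and 11.5% higher over all genes tested. Of 14 hepatocyte markers 13 were matched and tested, with 10 lower and 0 higher (also 0 higher at an unadjusted p under 0.05 in edgeR, and with DESeq2 or limma), a median log2 fold change of -0.44 and a summed FPKM of 13591 to 14806 in LOXP and 10385 to 10540 in STINGLKO. *Alb* was at -0.27 (adjusted p = 0.00319) and *Hpx* at -1.33 (adjusted p = 4.24e-05), and both groups held abundant hepatocyte mRNA, as the labels state. The lower droplet genes thus moved with a set of other hepatocyte genes, whose part in the result was not tested. Adipocyte markers, which matter here because fat cells are rich in perilipins, had 4 of 9 tested, 2 lower and 0 higher (0 higher at an unadjusted p under 0.05), with a summed FPKM of 12.6 to 13.7 in LOXP and 8.55 to 9.40 in STINGLKO, most of it *Car3* (-0.62, adjusted p = 0.00116). *Plin1*, *Lep* and *Retn* were at 0 in every library, and *Adipoq* had 2 counts in 1 library and 0 in the rest. The lower sum thus rests mostly on *Car3*, and whether its reads came from fat cells was not tested.

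Macrophage markers, with 11 of 12 tested, had 2 lower and 0 higher (1 higher at an unadjusted p under 0.05, and 1 with DESeq2), and a summed FPKM of 65.4 to 80.5 in LOXP and 51.2 to 60.5 in STINGLKO. Their log2 fold changes were mixed, with 6 negative and 5 positive, a range from -0.87 to 0.94 and a median of -0.12. *Cd68* was lower (-0.87, adjusted p = 4.21e-04) and *Lyz2* was at 0.18 (adjusted p = 0.353). Stellate cells, which also store lipid in droplets, had 8 of 10 markers tested and 0 called in edgeR (1 higher, 0 lower at an unadjusted p under 0.05, and 0 called with DESeq2 or limma), with a summed FPKM of 6.67 to 7.30 in LOXP and 7.24 to 8.17 in STINGLKO. *Dcn* was at 0.16 (adjusted p = 0.247), *Acta2* at 0.23 (adjusted p = 0.532), and *Lrat*, the defining marker of their retinoid stores, had 3 to 10 counts per library. Endothelial markers had 7 of 8 tested, 1 lower and 0 higher (0 higher at an unadjusted p under 0.05), with *Cdh5* at 0.01 (adjusted p = 0.977), *Lyve1* at -0.20 (adjusted p = 0.331) and a summed FPKM of 28.4 to 30.1 in LOXP and 26.2 to 28.6 in STINGLKO. Cholangiocyte markers had 4 of 6 tested, 3 lower and 1 higher, and a summed FPKM of 119 to 140 in LOXP and 61.8 to 72.7 in STINGLKO, most of it *Cldn4* (-1.03, adjusted p = 2.81e-04), with *Sox9* at -0.87 (adjusted p = 4.08e-04). The higher one was *Krt19* (0.82, adjusted p = 0.0479), named after its value was seen, and DESeq2 called 0 higher. The part of the macrophage and cholangiocyte markers in the droplet gene results was not tested.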

How the data were processed

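RNA of primary hepatocytes isolated by collagenase perfusion was extracted with TRIzol, and 6 libraries were made with the VAHTS Universal V6 kit and sequenced as paired-end reads, 3 from LOXP and 3 from STINGLKO hepatocytes. The submitters' processing notes name fastp, HISAT2, StringTie, edgeR and the build GRCm39. The annotation, counting options and strand setting are not given in the sources used here. The authors deposited 1 table that holds, for every gene and library, the count of reads and the FPKM. The deposited counts are whole numbers without normalization. The deposited FPKM values are counts scaled by the authors to library total and to a gene length, which for *Pnpla2* and *Plin4* exceeds the gene's span.

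Samples were grouped by their labels. Counts were filtered with filterByExpr (minimum count 10), normalized by TMM and tested with the two-sided quasi-likelihood test of edgeR 4.0.16 in R 4.3.3, and p-values were adjusted over the 14151 genes by Benjamini-Hochberg. The common biological coefficient of variation was 0.118. A gene with an adjusted p under 0.05 was called. The study's criteria add an absolute log2 fold change above 1 and at least 1 group averaging over 1 FPKM. The script was tested on simulated data. Alternatives were DESeq2 1.42.0, upper-quartile factors, all genes with 1 count or more, a block for the replicate number, limma-trend (limma 3.58.1) on FPKM after adding 1 or 0.1 and taking log2, and each library left out. Intervals and the limit a count of 0 allows cover fitted or counting error only.

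The 10 genes, the gene lists and the tests were chosen with earlier results of these data known. Named beyond the 10 genes are *Sting1*, up to 8 genes with the smallest adjusted p in the droplet and PPAR alpha lists, a fixed set of relatives and regulators (*Plin1*, *Cidea*, *Pnpla3*, *Lipe*, *Mgll*, *Hilpda*, *Hsd17b11*, *Ppara*, *Pparg*), genes that overlap one of the 10, and the 2 markers of each cell type with the highest mean FPKM. Markers given as undetected or defining, *Lep*, *Retn*, *Adipoq* and *Lrat*, were added to these, as were *Ldaf1*, *Ppargc1a* and *Krt19* after their values were seen. Some results are not reported here. Promoter windows came from RefSeq. Figures used Python 3.11.15 and matplotlib 3.10.9.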

Additional observations from a re-analysis of the deposited data

How the results depend on the processing

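None of the 120 alternative values of the 10 genes' fold changes reversed, of which 99 stayed on their side of the threshold, 18 lost a call and 3 gained one. Of 276 alternative values for the other named genes, 264 stayed, 4 lost a call, 3 gained one and 5 reversed. Lower droplet genes numbered 5 to 7 in every alternative. Of the 2 higher genes, 1 was left when all genes with 1 count or more were tested and 1 with the replicate block, and 0 to 2 with a library left out. Genes past the study's criteria went from 3 to 1 on log2(FPKM + 1) with limma. In the wider droplet list, 1 gene was higher on log2(FPKM + 1) and 1 on log2(FPKM + 0.1), and 0 to 1 with a library left out. The median log2 fold change of the 10 genes was -0.23 on log2(FPKM + 1) and -0.42 on log2(FPKM + 0.1), where the added constant shrinks the change of low genes, and -0.54 to -0.45 with a library left out. *Hsd17b11* turned to -4.45e-04 with upper-quartile factors and ran from -0.0517 to 0.0463 with a library left out, and *Mgll* ran from -0.31 to 0.34. The cause of these changes was not tested except where stated.

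Replicate numbers are shared by the groups. Deviations from the group means correlated at 0.120, 0.0834 and 0.0134 for numbers 1, 2 and 3, not each above 0.1, so the number was not taken as a pairing, although 5 of 6 libraries correlated best with their own number, a hint from the data and not from the design. With the number as a block, 1605 genes were lower and 1630 higher, beside 1641 and 1633 without it, and among the 10 genes *Plin3* gained a call (adjusted p = 0.0480, edgeR) while *Plin4* (0.0644) and *Cidec* (0.0546) lost theirs. *Plin4* rested on 45 to 80 counts per library, with a 95% interval from -1.15 to -0.26 on the log2 scale, and the precision of the low genes is limited accordingly.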
